A study of Arabidopsis thaliana with 45 samples.

Results

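First-generation offspring (S1) grown at 30 mGy/h of gamma radiation (S1γ30) were compared with S1 plants at background radiation (S1γ0) for CG methylation in windows of 200 bp. All windows that the authors listed for this comparison were taken, and each window was counted once although 4 of them stood in the list for 2 transposable elements (TEs). The 133 listed lines gave 129 different windows, of 3273 windows listed over all comparisons of the series. All were CG windows, and 66 were higher and 63 lower in S1γ30 than in S1γ0.

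The samples were Arabidopsis thaliana rosettes analysed by whole genome bisulfite sequencing, with 9 groups of 5 biological replicates (P0, S1 and S2, each at background, 30 mGy/h or 110 mGy/h). The study's methods do not say how many plants made up a replicate. S1γ30 plants were exposed for 14 days to a caesium-137 source and grew from seeds of P0 plants that had themselves received 30 mGy/h, so the group carries the exposure of its parents as well as its own. S1γ0 plants were kept at 0 mGy/h added dose in a separate growth chamber, and so were their parents. Chamber, parent plants and dose rate therefore cannot be told apart. By the study's methods the plants of a condition also shared containers, and the container of each replicate is not given. The labels give an age of 14 days at the start of exposure, and the study's methods give a younger one. The deposited tables hold 1 methylation level per window and group, which has no error here, because the values of the 5 replicates and the reads behind them were not analysed here. A group level of 0.4 can therefore come from 5 similar replicates or from a few replicates that differ from the others, and no test of a single window was run.

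In plants, cytosines followed by guanine are methylated mainly in repeats and in gene bodies. In TEs and other repeats methylation is dense and goes with silencing of the element. In the bodies of many active genes methylation is confined to CG and lies mostly away from both ends of the gene. CG methylation is copied to the new strand after each round of replication by the methyltransferase MET1, which is guided by VIM proteins that bind half-methylated CG, so a CG site tends to keep its state through cell divisions and from parent to offspring.

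Sequences are shown for the windows with the largest difference in each direction, the largest in a TE, the largest with 3 or more CG sites, and the windows that were listed again for the same treatment in S2 plants. They are read on the plus strand of the RefSeq TAIR10.1 genome, 5′ to 3′, with every CG in capitals.
TIL1 window, chr1:2592801-2593000, higher: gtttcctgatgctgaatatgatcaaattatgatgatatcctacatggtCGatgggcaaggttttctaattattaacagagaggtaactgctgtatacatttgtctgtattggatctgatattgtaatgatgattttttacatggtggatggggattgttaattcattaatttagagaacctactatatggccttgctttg
emb2411 window, chr1:2830001-2830200, lower: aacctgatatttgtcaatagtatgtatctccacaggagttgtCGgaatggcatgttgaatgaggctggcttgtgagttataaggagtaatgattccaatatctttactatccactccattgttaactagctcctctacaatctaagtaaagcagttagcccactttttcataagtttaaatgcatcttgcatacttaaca
AT1TE77450 and AT1TE77455 window, chr1:23521801-23522000, higher: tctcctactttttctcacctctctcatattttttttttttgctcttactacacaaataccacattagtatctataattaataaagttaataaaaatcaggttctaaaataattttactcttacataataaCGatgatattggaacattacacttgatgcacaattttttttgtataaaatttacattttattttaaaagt
AT1TE37610 window, chr1:11618401-11618600, higher: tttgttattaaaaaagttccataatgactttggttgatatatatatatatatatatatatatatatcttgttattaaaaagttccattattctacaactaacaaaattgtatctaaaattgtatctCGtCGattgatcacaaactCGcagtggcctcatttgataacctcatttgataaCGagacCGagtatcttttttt
AT1TE70200 window, chr1:21249601-21249800, lower: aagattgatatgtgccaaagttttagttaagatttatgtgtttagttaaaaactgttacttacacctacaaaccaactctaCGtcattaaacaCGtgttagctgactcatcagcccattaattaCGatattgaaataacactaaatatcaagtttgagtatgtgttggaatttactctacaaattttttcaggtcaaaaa
AT1G13470 window, coding part, chr1:4621401-4621542, higher: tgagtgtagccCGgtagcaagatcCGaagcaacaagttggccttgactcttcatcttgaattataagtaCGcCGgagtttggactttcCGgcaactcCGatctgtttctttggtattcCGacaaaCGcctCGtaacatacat
AT5G46420 window, chr5:18832601-18832800, lower: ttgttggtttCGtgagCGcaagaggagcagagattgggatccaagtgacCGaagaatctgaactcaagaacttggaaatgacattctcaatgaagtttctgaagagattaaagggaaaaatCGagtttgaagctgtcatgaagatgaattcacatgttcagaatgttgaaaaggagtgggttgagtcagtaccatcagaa
The first 3 of these windows hold 1 CG each, so the level of each is the level of a single CG site, whereas the AT1TE37610 window holds 5 and the coding part of the AT1G13470 window holds 9.

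The listed windows were 0.0227% of the 567496 windows of the 5 nuclear chromosomes that hold at least 1 CG. The windows higher in S1γ30 were 0.0116% and those lower were 0.0111% of the same genome windows. How many of these windows had enough reads in both groups to be compared is not known here, so these shares are lower bounds on the share of the windows the authors could test.

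The 2 sets of windows differed in where their levels lay. In the 66 windows that were higher in S1γ30 the level ranged between 0.209 and 0.937 in S1γ30 with a median of 0.651, against 0 and 0.695 in S1γ0 with a median of 0.308. In the 63 windows that were lower in S1γ30 the level ranged between 0 and 0.561 in S1γ30 with a median of 0.0204, against 0.215 and 0.929 in S1γ0 with a median of 0.437. The median size of the difference was 0.306 in the higher windows and 0.337 in the lower windows. These levels are a description, because the authors listed the windows by this same contrast.

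**Figure D1:**
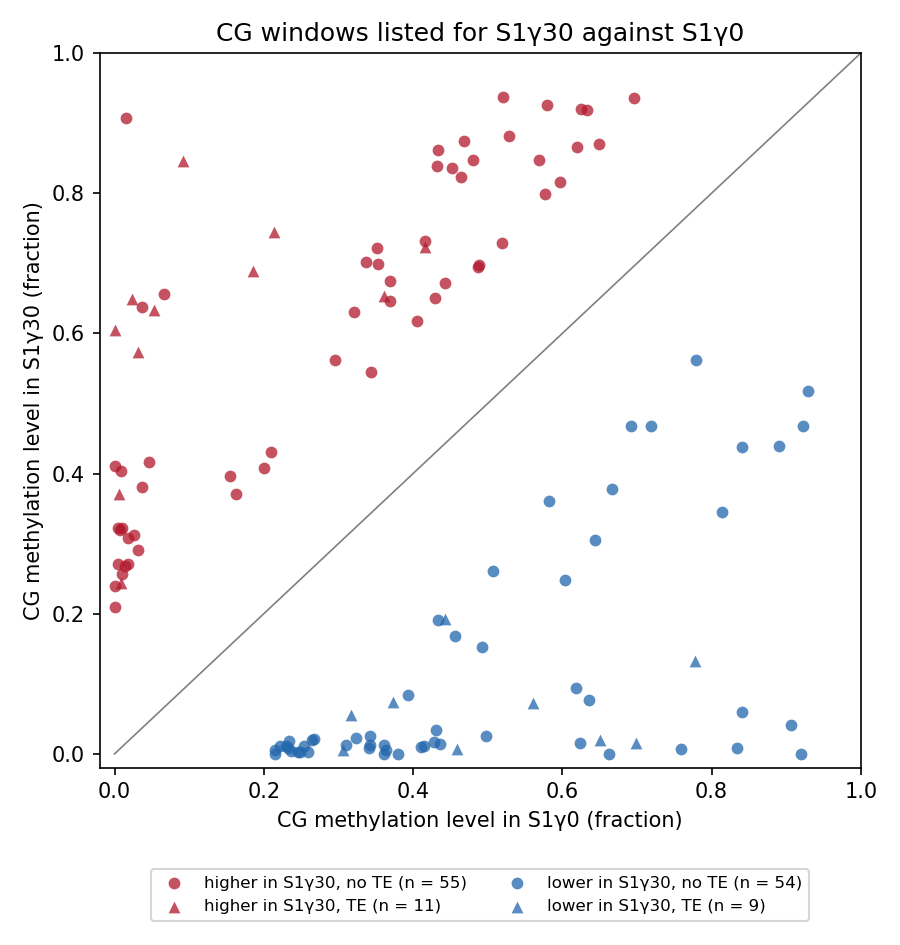
CG methylation level in S1γ30 (vertical axis, fraction) against S1γ0 (horizontal axis, fraction) for the 129 listed windows. Each point is 1 window, triangles are windows listed with a TE, and the line marks equal levels. Of the 63 lower windows, 45 lie below 0.10 in S1γ30, whereas 40 of the 66 higher windows are at or above 0.10 in both groups.

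Windows of 2 kinds made up the list. In 71 of the 129 windows (55.0%) 1 of the groups was below 0.10, that is, near to unmethylated. These were 45 of the 63 lower windows, in which S1γ30 was below 0.10, and 26 of the 66 higher windows, in which S1γ0 was below 0.10. In the other 58 windows both groups were partly methylated, with a median of 0.423 in the group that was lower and 0.720 in the group that was higher. Of these 58 windows, 40 were higher and 18 were lower in S1γ30. Among the 71 windows near 0 in one group, the level in the other group was below 0.3 in 21, between 0.3 and 0.5 in 30, and above 0.5 in 20.

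The 10 windows with the largest differences in each direction were mostly single CG sites. The largest of all was in emb2411 (AT1G08840), annotated as a DNA replication helicase. Its 1 CG, in the coding sequence near the 3′ end of the gene, was at 0 in S1γ30 and at 0.92 in S1γ0. The largest in the other direction was in TIL1 (AT1G08260), the catalytic subunit of DNA polymerase epsilon, which copies the leading strand. Its 1 CG, also coding, was at 0.907 in S1γ30 and at 0.0148 in S1γ0. The 2 genes lie on the same arm of chromosome 1.

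Other single CG sites in genes were near 0 in S1γ30. A coding CG of AT1G07040, a gene of unknown function, was at 0.0413 in S1γ30 and at 0.906 in S1γ0. An intronic CG of ATVPS33 (AT3G54860), a protein of vacuolar sorting, was at 0.00826 in S1γ30 and at 0.833 in S1γ0. Both sites were above 0.8 in S1γ0. An intronic CG of AT5G19420, an RCC1-repeat protein, was at 0.0595 in S1γ30 and at 0.840 in S1γ0. A coding CG of ATPI4K ALPHA (AT1G49340), a phosphatidylinositol 4-kinase that makes a signalling lipid of membranes, was at 0.00709 in S1γ30 and at 0.759 in S1γ0. In the opposite direction the only other gene among the 10 was AT1G51730, a ubiquitin-conjugating enzyme family protein, whose CG in the untranslated region was at 0.655 in S1γ30 and at 0.0661 in S1γ0.

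The remaining windows among these 20 lay outside protein-coding genes. A window 872 bp upstream of GDU6, a member of the GLUTAMINE DUMPER family linked to amino acid export, was at 0.637 in S1γ30 and at 0.0370 in S1γ0. A window 458 bp upstream of AT5G39471 was at 0 in S1γ30 and at 0.663 in S1γ0. A window at chr3:11749601-11749800 with no gene within 2000 bp downstream was at 0.0157 in S1γ30 and at 0.623 in S1γ0. The other 10 were windows in TEs and are described with the TEs.

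The windows just inside the authors' limit of 20% were of another kind. The 3 smallest differences among the higher windows were 0.544 in S1γ30 and 0.343 in S1γ0 for AT5G47020, 0.408 and 0.201 for AT3G18210, and 0.371 and 0.162 for AT5G23700, in the same order of groups. The 3 smallest among the lower windows started from a low level, with 0.00616 in S1γ30 and 0.215 in S1γ0 for AT1G18850, 0.0106 and 0.222 for AT4G36750, and 0 and 0.215 for a window 984 bp upstream of AT1G16560. In all, 37 of the 129 windows differed by less than 0.25. Windows just outside the limit were not analysed here.

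The size of the difference went with the number of CG sites in the window. The 19 windows with 1 CG had a median difference of 0.631, the 36 windows with 2 CG had 0.390, and the 74 windows with 3 or more CG had 0.256. Of the 22 windows that differed by more than 0.50, 16 held a single CG. Windows with 1 CG were 14.7% of the list and 10.04% of the genome windows with a CG, and windows with 3 or more CG were 57.4% of the list and 75.7% of those genome windows. The coverage of the windows is not known here, and the part of the number of CG sites in the size of the differences was not tested.

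**Figure D2:**
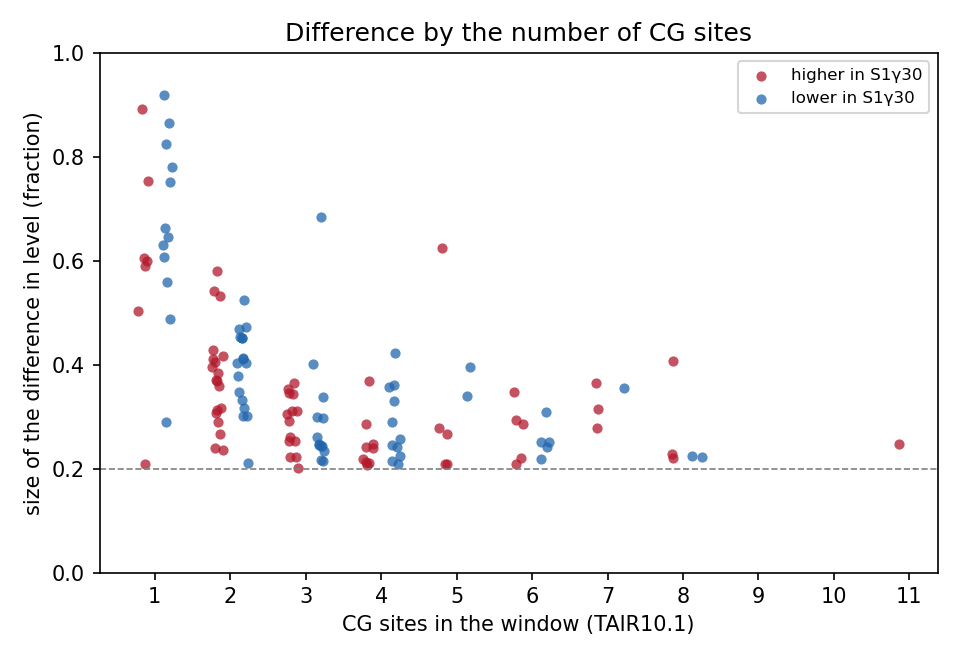
Size of the difference in CG methylation level (vertical axis, fraction) by the number of CG sites in the window (horizontal axis, counted in TAIR10.1), with 1 point per window, spread sideways within each number. The dashed line is the authors' limit of 20%. Windows with 1 CG reach 0.92 and their median is 0.631, against 0.256 in windows with 3 or more.

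Windows with many CG sites gave smaller differences. A level here stands for the whole window, and the levels of its separate CG sites are not known. AT1G13470, a gene of unknown function, held 11 CG in its window, at 0.866 in S1γ30 and 0.619 in S1γ0. A window with 8 CG lying 1270 bp upstream of AT5G42950 was at 0.839 in S1γ30 and at 0.432 in S1γ0. A window with 8 coding CG of CYP72A7, a cytochrome P450, was at 0.671 in S1γ30 and at 0.443 in S1γ0. All 3 were thus partly methylated in both groups. Among the lower windows, 8 coding CG of AT1G06170, a bHLH protein, were at 0.00787 in S1γ30 and at 0.232 in S1γ0. The 8 coding CG of SCL14, a GRAS-family transcription regulator, were at 0.361 in S1γ30 and at 0.582 in S1γ0. The 7 coding CG of AT1G08310, a hydrolase, were at 0.248 in S1γ30 and at 0.604 in S1γ0.

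Most of the windows lay inside genes. By the RefSeq annotation 98 of the 129 windows overlapped a protein-coding gene, 17 lay only upstream of one within 2000 bp, and 14 lay in neither. This was 76.0% inside genes, against 58.6% of the genome windows with a CG. Of the higher windows 52 of 66 were in genes, and of the lower windows 46 of 63. The windows touched 99 different protein-coding genes, and no gene was touched by 2 of them. The authors' own labels put 55 windows in promoters, 45 in gene bodies and 29 in neither. However, 33 of the 55 promoter windows and 21 of the 29 in neither overlapped a protein-coding gene of the annotation. A promoter label thus often marked the body of a neighbouring gene. Among the windows named by rule inside a protein-coding gene, those labelled gene body were all in minus-strand genes. Those in plus-strand genes were all labelled promoter or neither.

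The differences inside genes were smaller than those outside. The median size was 0.301 in genes, 0.468 upstream of genes and 0.488 in the remaining windows. More than 0.50 separated the groups in 8 of the 98 windows in genes, against 14 of the 31 outside them. The median number of CG was 3 in windows in genes and 2 in both other classes.

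Within genes few of the windows lay near the start of transcription. Each gene was divided into 3 parts of equal length. Of the 97 windows in exactly 1 protein-coding gene, 15 (15.5%) had their midpoint in the first part of the gene, 40 (41.2%) in the middle part and 42 (43.3%) in the last part. Among all genome windows in exactly 1 gene the shares were 35.2%, 32.3% and 32.6%. The higher windows lay most often in the middle part, with 26 of 52, and the lower windows in the last part, with 23 of 45. The first 10% of the gene held 5.15% of the windows, against 12.7% of the genome windows. Of the 338 CG sites in genes, 76.9% were coding, 18.9% intronic and 4.14% in untranslated regions, against 69.5%, 14.4% and 16.1% of all CG sites in protein-coding genes. The genes were a little longer than the average for such windows, with a median of 3064 bp against 2882 bp.

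**Figure D3:**
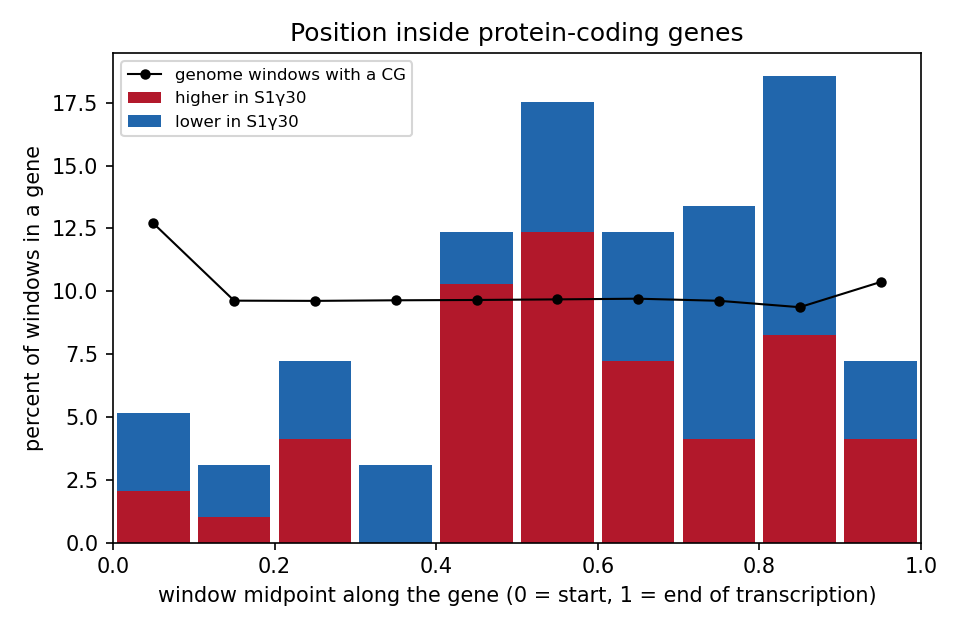
Share of the 97 windows in exactly 1 protein-coding gene (vertical axis, percent) by the position of the window's midpoint along the gene in the direction of transcription (horizontal axis, fraction of gene length, in bins of 10%). Bars are stacked for windows higher and lower in S1γ30, and the black line gives all genome windows with a CG. The first of 3 equal parts of the gene holds 15.5% of the windows and 35.2% of the genome windows.

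TEs held 20 of the 129 windows, 11 higher and 9 lower in S1γ30. The share of genome windows in a TE was not counted here, so TEs cannot be said to hold more or fewer windows than their share. The 20 windows had a median difference of 0.495, against 0.309 in the windows with no TE. Only 3 of the 20 were inside a protein-coding gene. In 14 of the 20 one of the groups was below 0.10, against 71 of all 129 windows. Most of the TE windows were thus near to unmethylated in one group and methylated in the other, as was most of the list.

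Methylation of TEs was thus listed in both directions. The window of AT1TE77450 and AT1TE77455, 449 bp upstream of AT1G63430, was at 0.846 in S1γ30 and at 0.0918 in S1γ0. The 5 CG of the AT1TE37610 window, whose sequence is shown above, were at 0.649 in S1γ30 and at 0.0240 in S1γ0. The AT2TE16335 window was at 0.605 in S1γ30 and at 0 in S1γ0. These were the largest higher TE windows, and only the second held more than 1 CG. Smaller differences were found in 4 more of the 10 largest higher windows. The window of AT1TE60435 and AT1TE60455 was at 0.634 in S1γ30 and at 0.0535 in S1γ0. In the same order of groups, the levels were 0.574 and 0.0316 for AT5TE48605, 0.745 and 0.214 for AT4TE26210, and 0.689 and 0.186 for AT4TE23655.

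The largest lower TE window was that of AT1TE70200, whose 3 CG were at 0.0154 in S1γ30 and at 0.699 in S1γ0. The AT2TE10365 window was at 0.133 in S1γ30 and at 0.778 in S1γ0. The AT4TE61975 window, 537 bp upstream of AT4G26030, was at 0.0204 in S1γ30 and at 0.651 in S1γ0. Among the TE windows inside genes was that of MUG3, a gene derived from a MuDR transposase, where 7 coding CG in AT1TE06780 were at 0.371 in S1γ30 and at 0.00594 in S1γ0.

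**Figure D4:**
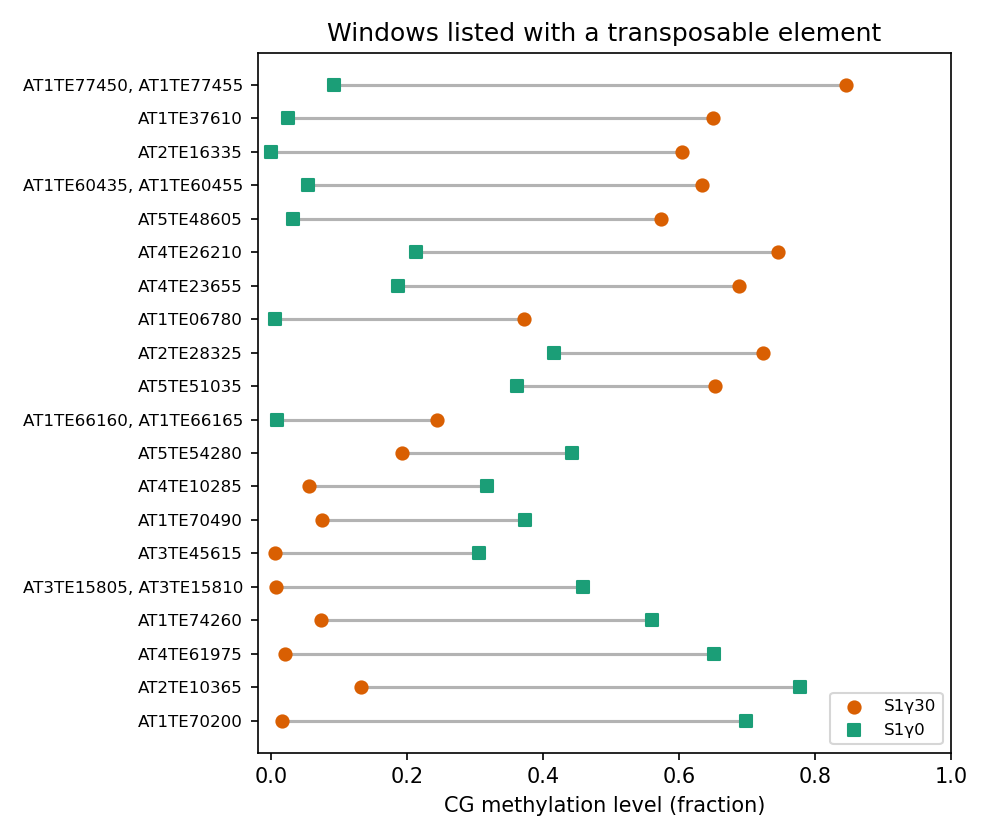
CG methylation level (horizontal axis, fraction) in S1γ30 (circles) and S1γ0 (squares) for the 20 windows listed with a TE, named by the TE and ordered by the difference. The 11 upper windows are higher and the 9 lower windows are lower in S1γ30, and 14 of the 20 are below 0.10 in one group.

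On chromosome 5, 2 windows with only 400 bp between them differed in opposite directions. The window at chr5:13658201-13658400 was at 0.0253 in S1γ30 and at 0.498 in S1γ0. The window at chr5:13658801-13659000, in AT5TE48605, was at 0.574 in S1γ30 and at 0.0316 in S1γ0. This was the only pair of windows within 1000 bp of each other, and 7 pairs lay within 10000 bp. No listed windows touched, and the windows beside them, which were not listed, were not analysed here.

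The chromosomes did not share the windows evenly. Chromosome 1 held 56 of the 129 windows (43.4%), against 25.4% of the genome windows with a CG. Chromosomes 2, 3, 4 and 5 held 22, 18, 12 and 21 windows. A stretch of chromosome 1 (chr1:1717801-2830200), chosen after the positions were seen, held 19 windows or 14.7% of the list, against 0.952% of the genome windows. All 19 were in protein-coding genes, 7 higher and 12 lower in S1γ30, and emb2411, TIL1 and AT1G07040 were among them. Without this stretch chromosome 1 held 33.6% of the windows. The same stretch held 14 windows (7.61%) of the list of S1γ30 against P0γ30 and 54 windows (2.93%) of the list of S2γ30 against S1γ30, both of which share the S1γ30 plants. It held 5 windows (1.84%) of the list of S2γ30 against P0γ30 and 12 windows (1.56%) of the list of S2γ30 against S2γ0, which used other plants.

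Within that stretch higher and lower windows were mixed up to TIL1, and all windows to the right of TIL1 were lower. Some of its windows are given here from left to right. AT1G05720 at the left end, annotated as a selenoprotein family gene, was at 0.404 in S1γ30 and at 0.00806 in S1γ0. AT1G06560, of an RNA methyltransferase family, was at 0.732 in S1γ30 and at 0.416 in S1γ0. NIH, a nuclear helicase, was at 0.467 in S1γ30 and at 0.692 in S1γ0. These 3 were above 0.3 in S1γ30 whichever way they differed. Between AT1G05720 and AT1G06560, however, AT1G06170 was at 0.00787 in S1γ30 and at 0.232 in S1γ0. SLP1, a calcineurin-like phosphatase, was at 0.0139 in S1γ30 and at 0.437 in S1γ0. F2KP, the enzyme that makes and breaks down fructose 2,6-bisphosphate, was at 0.647 in S1γ30 and at 0.369 in S1γ0. RNL, the ligase that joins the pieces of spliced tRNAs, was at 0.0223 in S1γ30 and at 0.324 in S1γ0. Toward the right end, the neighbours AT1G08750, a C13 peptidase, and AT1G08760 were at 0 in S1γ30 against 0.379 in S1γ0 and at 0.0111 in S1γ30 against 0.230 in S1γ0, and the emb2411 window followed.

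Of the 182 genes in 7 lists, 171 were found in the annotation, and 1 of these (0.585%) had a window inside it, against 99 of all 27444 protein-coding genes (0.361%). So few genes were touched in all that the lists cannot be told from the other genes. The DNA methylation list had 1 window inside any of its 24 genes. This was VIM1 (AT1G57820), a VIM protein of the kind that helps MET1 to copy CG methylation. There 2 CG in the untranslated region near the 3′ end were at 0.271 in S1γ30 and at 0.00431 in S1γ0. The same window lay 1718 bp upstream of VIM5. The list of DNA damage response and repair had no window inside its 31 genes and 1 window nearby, 590 bp upstream of KU70, a subunit of the Ku complex that binds broken DNA ends. Its 2 CG were at 0.0130 in S1γ30 and at 0.361 in S1γ0, and the same window lay 600 bp upstream of TPS2. The list of antioxidant and redox genes had no window inside its 24 genes, and the emb2411 window lay within 2000 bp of CSD1, a cytosolic superoxide dismutase. No window lay in or within 2000 bp of a gene of the lists for RNA splicing (22 genes), chromatin and histone modification (30), flowering time (28) or trichome formation (12). The lists do not hold every gene of these functions, and SWI3C, a chromatin remodelling gene with a window here, is not on them. Nor were the DNA replication genes emb2411 and TIL1, with the largest differences in their directions, among the genes found for these lists.

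Many of the windows were listed again where S1γ30 plants were set against other plants. In all 86 of the 129 windows stood in at least 1 other list, 41 higher and 45 lower ones, and 85 of the 86 were in a list that shares the S1γ30 plants. The list of S1γ30 against P0γ30 held 45 of them (34.9% of these windows and 24.5% of that list), where 0.0324% of the genome windows were listed. The list of S2γ30 against S1γ30 held 71 (55.0% of these windows and 3.85% of that list), where 0.325% were listed. The list of S1γ110 against S1γ30 held 8 (6.20% of these windows and 21.6% of that list), where 0.00652% were listed. These comparisons share the 5 S1γ30 replicates with the one described here, so they are no separate evidence on the S1γ30 levels. Apart from AT1G13470, whose S2γ30 level comes from the S2 list, the levels of P0γ30, S2γ30 and S1γ110 are known only where that group was also listed as differing from S1γ30.

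Where a level of P0γ30 was listed it was close to that of S1γ0. In the 45 windows it differed from S1γ0 by a median of 0.0243 and at most by 0.0716, and from S1γ30 by a median of 0.317. The level of S2γ30, listed in 72 windows, differed from S1γ0 by a median of 0.0262 and at most by 0.242, and was within 0.10 of it in 62 windows. Both distances depend on how the windows were listed. A level of P0γ30 or S2γ30 is known almost only where that group, like S1γ0, was 20% or more away from S1γ30, which favours windows in which the other groups are alike, so these values are a description of the listed windows and not of the groups.

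For 33 windows the levels of P0γ30, S1γ30, S2γ30 and S1γ0 were all known. In the 16 higher ones the medians were 0.0145 in P0γ30, 0.388 in S1γ30 and 0.0162 in S2γ30, against 0.00913 in S1γ0. In the 17 lower ones they were 0.449 in P0γ30, 0.0165 in S1γ30 and 0.585 in S2γ30, against 0.459 in S1γ0. S1γ30 was outside the range of the other groups in all 33, and the other groups spanned a median of 0.0482 and at most 0.241. In emb2411 the level was 0.943 in P0γ30, 0 in S1γ30 and 0.892 in S2γ30, against 0.92 in S1γ0. In VIM1 it was 0.00495 in P0γ30, 0.271 in S1γ30 and 0.0171 in S2γ30, against 0.00431 in S1γ0. The S1γ30 group thus stood apart from both its parents' and its offspring's generation at the same dose rate in these windows, which were listed because it did.

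**Figure D5:**
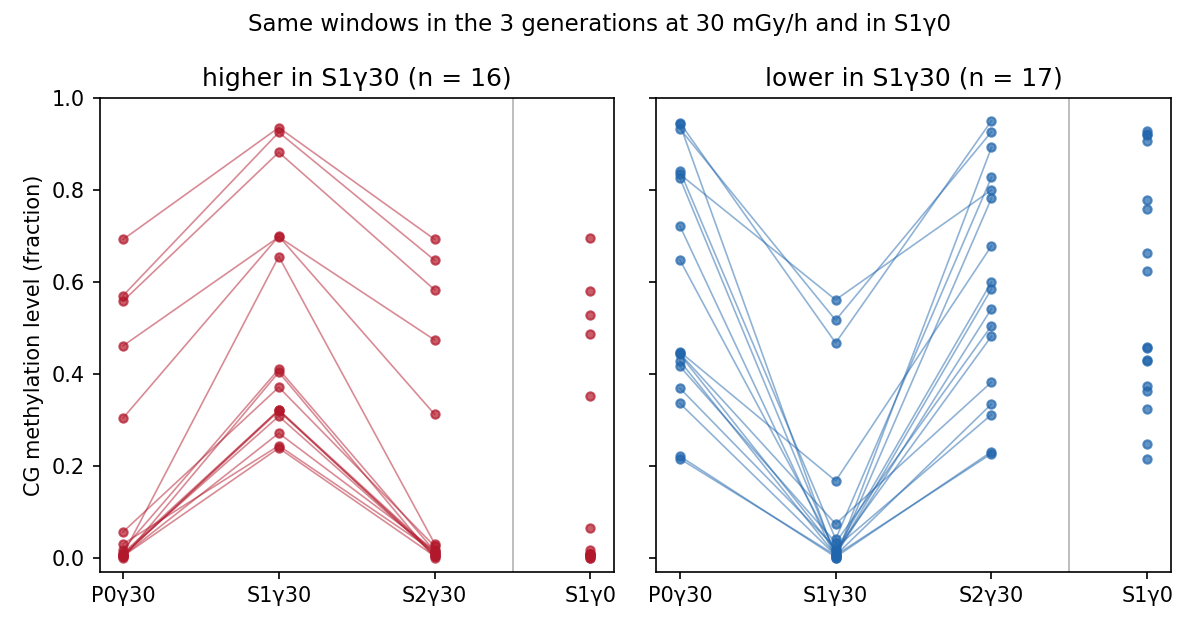
CG methylation level (vertical axis, fraction) of the 33 windows with a known level in P0γ30, S1γ30, S2γ30 and S1γ0, for 16 windows higher (left) and 17 lower (right) in S1γ30. Each point is 1 window in 1 group and lines join the generations at 30 mGy/h. S1γ30 is above or below all 3 other groups in every window, and the other groups span at most 0.241.

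Windows listed in 3 other tables were AT1G07040, SWI3C, NUA, AT5G46420 and a TE window. In AT1G07040 the level was 0.842 in P0γ30, 0.0413 in S1γ30, 0.828 in S2γ30 and 0.858 in S1γ110, against 0.906 in S1γ0. In SWI3C, a subunit of SWI/SNF chromatin remodelling complexes, 2 coding CG were at 0.947 in P0γ30, 0.468 in S1γ30, 0.950 in S2γ30 and 0.924 in S1γ110, against 0.922 in S1γ0. In both windows 4 of the groups were above 0.8 and S1γ30 alone was lower. In NUA, a protein of the nuclear pore, 4 intronic CG were at 0.461 in P0γ30, 0.698 in S1γ30, 0.474 in S2γ30 and 0.451 in S1γ110, against 0.488 in S1γ0. The window of AT3TE15805 and AT3TE15810 was at 0.429 in P0γ30, 0.00654 in S1γ30, 0.542 in S2γ30 and 0.449 in S1γ110, against 0.459 in S1γ0.

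The higher dose rate in S1 gave a level for 8 windows. In 7 of them S1γ110 was within 0.10 of S1γ0. These levels, too, are known only where S1γ110 was listed as differing from S1γ30, so they describe these windows and not the group. The exception was ATCHX7, a cation/hydrogen exchanger family gene, at 0.0259 in S1γ30 and 0.630 in S1γ110, against 0.342 in S1γ0. The list of S1γ110 against S1γ0 held 2 windows in all, and none of them was among the 129.

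The S2 comparison of 30 mGy/h with background used other plants in both groups, and its list shared 2 windows with the S1 list. These were 1.55% of the S1 windows and 0.259% of the 771 S2 windows, where 0.136% of the genome windows were listed. AT1G13470 had the same direction in both generations, at 0.866 in S1γ30 against 0.619 in S1γ0 and at 0.858 in S2γ30 against 0.636 in S2γ0. AT5G46420, a 16S rRNA processing protein of the RimM family, had opposite directions, at 0.168 in S1γ30 against 0.457 in S1γ0 and at 0.678 in S2γ30 against 0.413 in S2γ0. Its level in P0γ30 was 0.449, near to that of both background groups.

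Counted by gene, 7 of the 99 genes also had a window in the S2 list, or 7.07%, where 635 genes (2.31% of all protein-coding genes) had one. The 7 were 1.10% of those 635. Apart from AT1G13470 and AT5G46420 these were windows at other places of the same gene. AT5G04600, an RNA-binding protein, had touching windows that were low under 30 mGy/h in both generations, at 0.0118 in S1γ30 against 0.254 in S1γ0 and at 0.0158 in S2γ30 against 0.439 in S2γ0. The myosin gene XIF was at 0.438 in S1γ30 against 0.841 in S1γ0, and its S2 windows, 1400 bp and 7400 bp away, were at 0.411 in S2γ30 against 0.817 in S2γ0 and at 0.0550 in S2γ30 against 0.756 in S2γ0. VCS, an mRNA decapping factor, was at 0.431 in S1γ30 against 0.210 in S1γ0, and 3800 bp away at 0.436 in S2γ30 against 0.123 in S2γ0. AT5G07810, an SNF2-domain helicase, was at 0.618 in S1γ30 against 0.405 in S1γ0, and 4000 bp away at 0.858 in S2γ30 against 0.563 in S2γ0. AT1G12470 had opposite directions, at 0.862 in S1γ30 against 0.433 in S1γ0, and 1600 bp away at 0.429 in S2γ30 against 0.687 in S2γ0. These genes were named after their values were seen. Windows in exactly 1 gene lay in genes with a median length of 3064 bp, against 2078 bp for all protein-coding genes. The part of gene length in the share of 7.07% was not tested.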

How the data were processed

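Rosette DNA of the 10 S1 samples compared here was sequenced after bisulfite conversion. Per the study's methods and the labels, reads were mapped by the authors with CLC Genomics Workbench against TAIR10, called CG, CHG and CHH sites with a minimum coverage, compared groups in windows of 200 bp, adjusted p-values in R 3.5.0, added the nearest gene and, with bedtools, the nearest TE, and listed a window where its p did not exceed 0.05 and its levels were 20% or more apart. The deposited methylation levels are fractions (0 to 1), 1 per group and window, so depth and the spread between replicates are unknown here. The deposited p-values, adjusted p-values and differences hold the authors' own tests and were not used. Of the 18 tables, 10 held CG windows and 8 had a header line alone.

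Differences were taken as S1γ30 minus S1γ0 from the deposited fractions. Windows were placed on RefSeq TAIR10.1, and all 2331 different windows of the series held a CG there. Of the 45 windows the authors placed in gene bodies, 35 had a gene name found in the annotation, and all 35 overlapped that gene. The 722 group levels given in more than 1 table were identical to within 1e-06. The background was every 200 bp window of the nuclear genome with a CG, not the windows the authors tested. Lookups were tested on simulated data. Python 3.11.15, pandas 2.3.3, NumPy 2.4.6 and Matplotlib 3.10.9 were used.

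Windows were named by rule: the 10 largest differences in each direction, the 3 largest in TEs, the 3 smallest, the 3 with most CG sites, those listed again for S2γ30 against S2γ0 or in 3 other tables, those of genes touched more than once, and those in or within 2000 bp of a listed gene. The members, the rule and the gene lists were chosen with earlier results of these data known. Alternatives covered the difference, the number of CG sites, the overlap with genes and the limit for low levels.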

Additional observations from a re-analysis of the deposited data

How the results depend on the processing

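A stricter difference of more than 30% left 34 higher and 38 lower windows, against 66 higher and 63 lower at the authors' limit, so that lower windows became the larger set. Counting every listed line gave 69 higher and 64 lower, and no windows touched. The median difference was 0.312 over all windows, 0.256 with at least 3 CG sites and 0.301 inside genes. Windows inside protein-coding genes numbered 97 by the midpoint and 95 by the whole window, and 12 lay within 1000 bp upstream. Windows near 0 in one group numbered 61 below 0.05 and 79 below 0.20. The listed share of genome windows was 0.0172% with at least 3 CG sites. Touching windows raised the overlap with the S2 list to 4, with AT5G04600 low under 30 mGy/h in both generations and the AT1TE74260 window at 0.0727 in S1γ30 against 0.561 in S1γ0 but 0.511 in S2γ30 against 0.0438 in S2γ0 in the touching window. Of the 18 alternatives, 15 stayed within 1.5 times the reported value. No paired analysis was possible because the tables hold group levels with no value per replicate. For the same reason no replicate could be left out. A limit on the distance to a TE was not run, since the tables used here give the TE name alone.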

Other observations

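The following windows were picked after their values were seen and are given as values. Of the class XI myosins, motors that move organelles along actin, XIG was at 0.919 in S1γ30 and 0.633 in S1γ0, while XIF was at 0.438 in S1γ30 and 0.841 in S1γ0 and XIH was at 0.260 in S1γ30 and 0.508 in S1γ0. In RPT2a and RPT4A, both ATPase subunits of the proteasome, the level was 0.630 in S1γ30 against 0.320 in S1γ0 and 0.562 in S1γ30 against 0.296 in S1γ0. VPS41, which works with VPS33 in vacuolar sorting, was at 0.322 in S1γ30 and 0.00957 in S1γ0, opposite to ATVPS33.

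In other genes with a known role, the level of CESA6, a subunit of cellulose synthase, was 0.925 in S1γ30 and 0.580 in S1γ0. The ethylene receptor gene ETR2 was at 0.0106 in S1γ30 and 0.415 in S1γ0. ALB1, a subunit of the magnesium chelatase of chlorophyll synthesis, was at 0.00602 in S1γ30 and 0.364 in S1γ0, and its near neighbour SIG2, a plastid sigma factor, was at 0.00232 in S1γ30 and 0.248 in S1γ0. ABF2, a transcription factor of abscisic acid signalling, was at 0.721 in S1γ30 and 0.352 in S1γ0.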
